A study of Mus musculus with 10 samples.

Results

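Hematopoietic stem cells keep to their place in the bone marrow through integrins, selectin ligands, other adhesion molecules and the cytoplasmic proteins that switch integrins on, and 41 genes of this kind were followed here. They were chosen by name as adhesion and homing genes, with earlier results of these data known. All 41 were found by symbol among the 51670 mouse gene models of the deposited table. They comprised 12 integrin alpha subunits, 4 integrin beta subunits, 4 selectin or sialomucin genes, 4 immunoglobulin-type molecules, 2 cadherins, 3 tetraspanins, 10 integrin activators and focal adhesion proteins, and 2 proteins held in the membrane by a lipid (GPI) anchor. The cells had been sorted as stem cells by surface protein, negative for CD48 and lineage antigens and positive for CD150, Sca-1 and Kit, from wild-type C57BL/6J mice. One group of mice had received DMSO, the solvent (5 libraries), and the other tunicamycin at 2 mg per kg (5 libraries), both by intraperitoneal injection. Age, sex, the time from injection to sorting and whether each library came from its own mouse are not stated. The p-values therefore reflect only how these libraries vary, and that variation may be technical. Tunicamycin is an inhibitor of N-linked glycosylation, which burdens the endoplasmic reticulum with unfolded protein, and integrins are themselves heavily N-glycosylated.

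An integrin is a pair of 1 alpha and 1 beta subunit that spans the membrane and binds matrix proteins or receptors on other cells. It changes from a resting to a binding shape when talin and a kindlin attach to the tail of the beta subunit, a step that the small GTPase Rap1 promotes. In the bone marrow the pair of Itga4 and Itgb1 (VLA-4) binds Vcam1, Itga5 with Itgb1 binds fibronectin, Itga6 binds laminins, and Itgal with Itgb2 (LFA-1) binds Icam1. Selectins on vessel walls catch sugar-bearing ligands such as Selplg (PSGL-1) and Cd44 on the stem cells. Values below are FPKM (fragments per kilobase of gene model, scaled to the mapped fragments of the library), with the mean ± SD over 5 libraries (n = 5 per group), and changes are tunicamycin against DMSO on the log2(FPKM + 1) scale with the SE, tested with limma and Benjamini-Hochberg adjustment over all genes tested.

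Of the genes of this set that rose, Plaur, the receptor of urokinase, Sele, E-selectin, and F11r had an AP-1 element near the gene start. Promoter windows from 250 bases before to 50 bases after a RefSeq start (build GRCm38.p6) were at hand for 29 of the 41 members, with 36 windows in all. The AP-1 element TGANTCA, searched on both strands, was found in 6 of the 36 windows, and of 32851 windows of all genes 7.81% held it. The starts of 30 windows lay within 1000 bases of the gene start in GENCODE M21, a limit set after the matches were seen, and 4 of these 30 held the element. The share over windows of all genes was taken without that limit. Among members with such a window it was found in 3 of 11 higher members, 0 of 13 tested members that did not pass the threshold and 1 of 4 untested members (Itgax). Itga1, Icam1, Itgb5, Rap1b and Fermt2 had larger log2 changes (1.45, 1.19, 1.06, 0.96 and 0.91) than F11r (0.89), and their windows lacked the element. The other 2 matches were in the only window of Itga9, whose start lies 105002 bases inside the gene, and in a window of Itga3 that lies 7603 bases inside. The windows of the 3 higher members are shown 5′ to 3′ on the strand of the gene, with the AP-1 letters in capitals.
Plaur, chr7:24462233-24462532, plus strand: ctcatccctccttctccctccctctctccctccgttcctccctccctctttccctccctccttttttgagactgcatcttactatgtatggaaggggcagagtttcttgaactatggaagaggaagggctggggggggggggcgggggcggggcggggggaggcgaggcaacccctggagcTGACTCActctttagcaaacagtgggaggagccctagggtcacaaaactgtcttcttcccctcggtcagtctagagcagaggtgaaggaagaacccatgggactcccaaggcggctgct
Sele, chr1:164047984-164048283, plus strand: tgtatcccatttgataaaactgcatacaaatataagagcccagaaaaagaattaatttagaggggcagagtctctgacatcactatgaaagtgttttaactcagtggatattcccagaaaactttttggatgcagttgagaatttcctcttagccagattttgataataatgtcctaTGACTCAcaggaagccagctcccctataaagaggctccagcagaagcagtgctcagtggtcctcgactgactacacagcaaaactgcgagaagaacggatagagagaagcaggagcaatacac
F11r, chr1:171437311-171437610, plus strand: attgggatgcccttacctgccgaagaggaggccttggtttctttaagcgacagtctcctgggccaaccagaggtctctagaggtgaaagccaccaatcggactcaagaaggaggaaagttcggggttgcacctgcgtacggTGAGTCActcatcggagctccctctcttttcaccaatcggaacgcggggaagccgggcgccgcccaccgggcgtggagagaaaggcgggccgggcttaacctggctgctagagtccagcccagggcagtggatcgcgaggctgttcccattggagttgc
In Plaur the letters lay at -69 to -63 from the start, in Sele at -73 to -67 and in F11r at -109 to -103. The amino acid response element core TGATGNAA and the UPR element TGACGTGG matched 0 member windows, against 3.97% and 0.676% of all windows. The ER stress response element also matched 0, against 0.119%. The NF-kB consensus, a single pattern of 10 bases, matched 1 member window, that of Ilk, against 4.51% of all windows. Sites that depart from that pattern are missed by such a search. A match describes letters only, and binding was not measured.

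The sorted cells carried the genes of their gate. Kit had means of 101 ± 17.7 FPKM (DMSO) and 107 ± 22.9 FPKM (treated), Ly6a (Sca-1) at 93 ± 11.6 and 142 ± 23.1 FPKM, and Slamf1 (CD150) at 6.01 ± 2.16 and 9.77 ± 2.01 FPKM. Cd48, which the gate excludes as a protein, had transcripts in both groups, at 26.4 ± 7.52 and 62.1 ± 9.25 FPKM. Of the lineage genes, Cd8a stayed under 1 FPKM in every library, while Cd4 went from 3.83 ± 1.35 to 17.9 ± 3.55 FPKM. Markers of other cells were also present and higher after tunicamycin in 12 of 12 tested macrophage genes, 9 of 10 endothelial, 7 of 8 stromal and 7 of 9 megakaryocyte genes. Of 8 tested neutrophil and monocyte genes 0 were past the threshold. Of 6 tested lymphoid genes 4 rose, and of 10 erythroid genes 4 rose and 6 fell. The lymphoid gene Ebf1, counted as higher, was at 0.425 to 0.628 FPKM after DMSO and was tested only because it was high in treated libraries. Over all genes tested 29.9% rose and 15.4% fell. In bulk samples more or fewer cells of a type cannot be told apart from more or less RNA per cell. In Tunicamycin replicate 1 every value of the table is a whole number, so it is coarse for genes near 1 FPKM.

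Of the 41 members 33 reached 1 FPKM in at least 5 libraries and were tested. After tunicamycin 15 of them rose and 0 fell, and at an unadjusted p under 0.05 0 were lower. Of all 14727 genes tested 29.9% rose and 15.4% fell. Setting members beside all genes is a description, since the members were chosen with earlier results of these data known. Itga1 and Itga9 were under 1 FPKM in every DMSO library, so they were tested only because they were high in treated ones. Fermt2 reached 1 FPKM after DMSO in replicate 3 alone (1.16 FPKM), so it too passed the filter mainly through treated libraries, and it stays in the next count. Over genes that reached 1 FPKM in at least 1 library of each group, 13 of 31 members rose and 0 fell, against 28.6% and 15.5% of 14434 genes. The median log2 change of the 33 members was 0.37, and that of all genes tested was 0.18. The groups did not overlap, with every treated library above every DMSO library, for 13 of the 33, against 19.2% of all genes tested. No tested member had every treated library below every DMSO library, against 11% of all genes tested. With each library scaled to the same median, 13 members rose and 2 fell (Itga4 and Cd44), and over all genes 3037 rose and 3972 fell against 4403 and 2261. That scaling moved the median change of all genes to -0.04. Scaling to a common sum moved it to 0.31 and gave 20 higher members, and over all genes 5481 rose and 1693 fell.

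**Figure D1:**
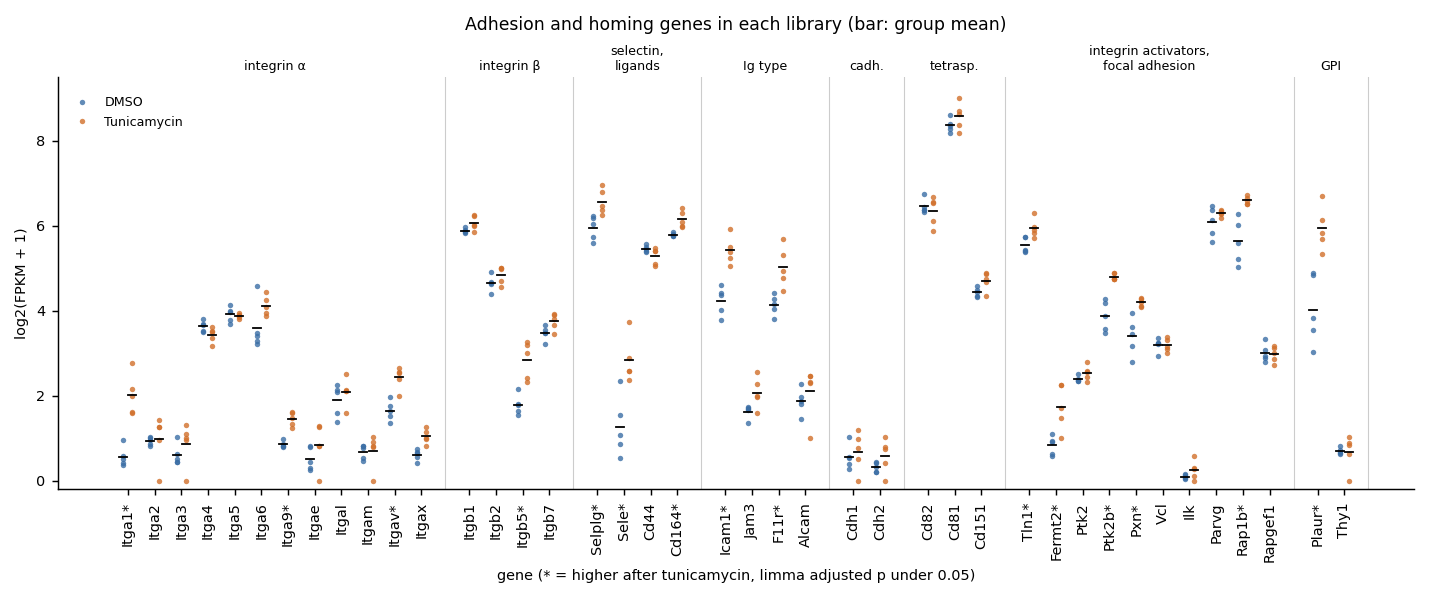
Level of the 41 adhesion and homing genes in each library as log2(FPKM + 1), grouped by family, with DMSO libraries in blue, tunicamycin libraries in orange and a bar at each group mean of the plotted values. The 15 genes marked with an asterisk were higher after tunicamycin, and Cd81 was the most abundant member.

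Of the 8 tested alpha subunits of the set Itga1, Itgav and Itga9 rose, and Itga4, Itga5, Itga6, Itgal and Itga2 did not pass the threshold. The share that rose was 37.5%, near the 29.9% of all genes tested. Itga1, the alpha subunit of a collagen receptor, was at 0.299, 0.495, 0.44, 0.933 and 0.335 FPKM in DMSO replicates 1 to 5 and at 2, 5.81, 2.97, 2.06 and 3.48 FPKM in tunicamycin replicates 1 to 5. All treated libraries lay above all DMSO libraries, with the highest value in Tunicamycin replicate 2. It changed by 1.45 ± 0.22 (SE) on the log2 scale (limma, adjusted p 0.000274). Because no DMSO library reached 1 FPKM, Itga1 passed the filter through the treated libraries only.

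Itgav, the vitronectin receptor subunit that pairs with Itgb5, went from 2.17 ± 0.527 to 4.46 ± 0.892 FPKM, a log2 change of 0.78 (adjusted p 0.00168, limma). Itga9, a receptor for tenascin and osteopontin, went from 0.819 ± 0.0958 to 1.74 ± 0.298 FPKM, a log2 change of 0.59. Itga9, too, was under 1 FPKM in every DMSO library, and its call was lost with quantile normalization (adjusted p 0.0987). For Itga1, Itgav and Itga9 the groups were apart.

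Itga6, the laminin receptor subunit, had the highest mean over all 10 libraries of the alpha subunits in the set, although Itga5 was higher in the DMSO group. It was at 22.9, 10.2, 8.34, 8.84 and 9.54 FPKM in DMSO replicates 1 to 5 and at 16, 20.7, 14.5, 18 and 13.6 FPKM after tunicamycin. DMSO replicate 1 lay above every other library, treated ones included, while the other 4 DMSO libraries lay below all treated ones. On the log2 scale the difference was 0.53 ± 0.23 (SE; adjusted p 0.0773, limma). Without DMSO replicate 1 it was 0.77 and past the threshold, with an adjusted p of 0.000995. With scaling to a common sum Itga6 passed as well (0.67, adjusted p 0.0332).

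Itga5, the fibronectin receptor subunit, was at 14.1 ± 1.87 and 13.8 ± 0.49 FPKM, with a log2 change of -0.03 ± 0.10 (SE). Itga4, the alpha subunit of the receptor for Vcam1, was at 11.5 ± 1.08 and 9.92 ± 1.3 FPKM, with a log2 change of -0.19 (adjusted p 0.179). Itga4 passed as lower with equal medians (log2 change -0.43) and with quantile normalization (-0.37). Itgal, the alpha subunit of LFA-1, was at 2.81 ± 0.947 and 3.35 ± 0.951 FPKM (log2 change 0.20), and Itga2, another collagen receptor subunit, at 0.921 ± 0.119 and 1.1 ± 0.673 FPKM (log2 change 0.05). The whole-number library listed Itga2 at 0, and without it the log2 change of Itga2 was 0.30 (adjusted p 0.0749).

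The remaining alpha subunits were near the limit of detection and were not tested with the others. Itgax, a complement receptor subunit of myeloid and dendritic cells, was at 0.47, 0.671, 0.61, 0.576 and 0.343 FPKM after DMSO and at 1, 1.21, 0.759, 0.989 and 1.42 FPKM after tunicamycin. All treated libraries lay above all DMSO libraries, with a two-sided p of 0.00794 by exact permutation, which is as small as 5 against 5 libraries allow. Itga3, Itgae and Itgam had means of 0.542, 0.459 and 0.614 FPKM after DMSO and of 0.92, 0.875 and 0.683 FPKM after tunicamycin, with exact permutation p-values of 0.183, 0.198 and 0.778. Tunicamycin replicate 1 listed all of these 3 at 0. Without that library the treated means were 1.15, 1.09 and 0.854 FPKM, with exact permutation p-values of 0.0476, 0.0159 and 0.0952, where 0.0159 is the smallest p that 4 against 5 libraries allow. The exons of Itgam overlap those of another gene model on the same strand over 68.7% of their length in GENCODE M21. How reads in that overlap were counted is not given in the sources used here, so the low values of Itgam, the Mac-1 subunit of myeloid cells, are uncertain.

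Of the beta subunits, Itgb5 rose and Itgb1, Itgb2 and Itgb7 did not pass the threshold. The share that rose was 25%, near the 29.9% of all genes tested. Itgb5 was at 3.5, 2.1, 2.44, 2.49 and 1.91 FPKM in DMSO replicates 1 to 5 and at 7, 8.23, 4.03, 4.35 and 8.63 FPKM after tunicamycin. The groups did not overlap, and Tunicamycin replicates 1, 2 and 5 lay well above replicates 3 and 4. This gave a log2 change of 1.06 ± 0.20 (SE; limma, adjusted p 0.0011). Itgb5 and its partner Itgav were thus both higher.

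Itgb1, the shared partner of most alpha subunits, was the most abundant integrin gene of the set. It was at 61.9, 57, 55.5, 58.5 and 57.5 FPKM after DMSO and at 63, 74.9, 63.6, 56.3 and 73.4 FPKM after tunicamycin. Tunicamycin replicate 4 lay within the DMSO range and the other 4 treated libraries above it. The log2 change was 0.18 ± 0.10 (SE; adjusted p 0.168, limma). Its sign turned with equal medians (-0.08), and it passed as higher with quantile normalization (0.19) and with scaling to a common sum (0.31). Itgb2, the beta subunit of leukocyte integrins, was at 24.4 ± 3.23 and 28.1 ± 4.02 FPKM (log2 change 0.19, adjusted p 0.236), and its sign also turned with equal medians (-0.06). Itgb7, the partner of Itga4 and Itgae in gut homing, was at 10.2 ± 1.21 and 12.6 ± 1.75 FPKM (log2 change 0.28, adjusted p 0.0808), and it passed without Tunicamycin replicate 1 (0.35, adjusted p 0.0166) and with scaling to a common sum (0.41, adjusted p 0.0204).

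In the summed integrin transcripts the shares of Itga2b and Itgb3 were higher after tunicamycin, 2 subunits outside the set which pair as the platelet fibrinogen receptor (Itga2b was named after its values were seen). The 12 alpha subunits of the set summed to 46.9 ± 5.23 FPKM in the DMSO group and 57.7 ± 6.63 FPKM in the treated group. Over all 18 alpha subunits looked at it was 121 ± 21.8 and 247 ± 23.5 FPKM. Itga2b alone made up 53.8 ± 4.48% of the 18-subunit sum after DMSO and 66.8 ± 3.3% after tunicamycin. The share of Itga4 was 9.66 ± 1.24% and 4.07 ± 0.821%, that of Itga5 11.9 ± 1.87% and 5.6 ± 0.522%, and that of Itga6 9.72 ± 3.68% and 6.78 ± 1.46%. For Itga4 and Itga5 the 2 groups of shares did not overlap, and for Itga6 they did. Among the 8 beta subunits Itgb1 made up 54.6 ± 2.58% of the sum after DMSO and 44.5 ± 2.58% after tunicamycin, and Itgb3 9.47 ± 2.54% and 22.5 ± 3.96%. The shares of Itgad (5.76 to 8.79%), Itga1 (0.429 to 1.33%) and Itgb5 (2.33 to 4.29%) were also higher on average. Itga2b and Itgb3 are on the list of megakaryocyte markers, whose sum was 351 to 825 FPKM in the DMSO group and 1082 to 1703 FPKM in the treated group, and the part of megakaryocyte RNA in these shares was not tested. These shares are a description without a test, and a share falls when another subunit rises.

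**Figure D2:**
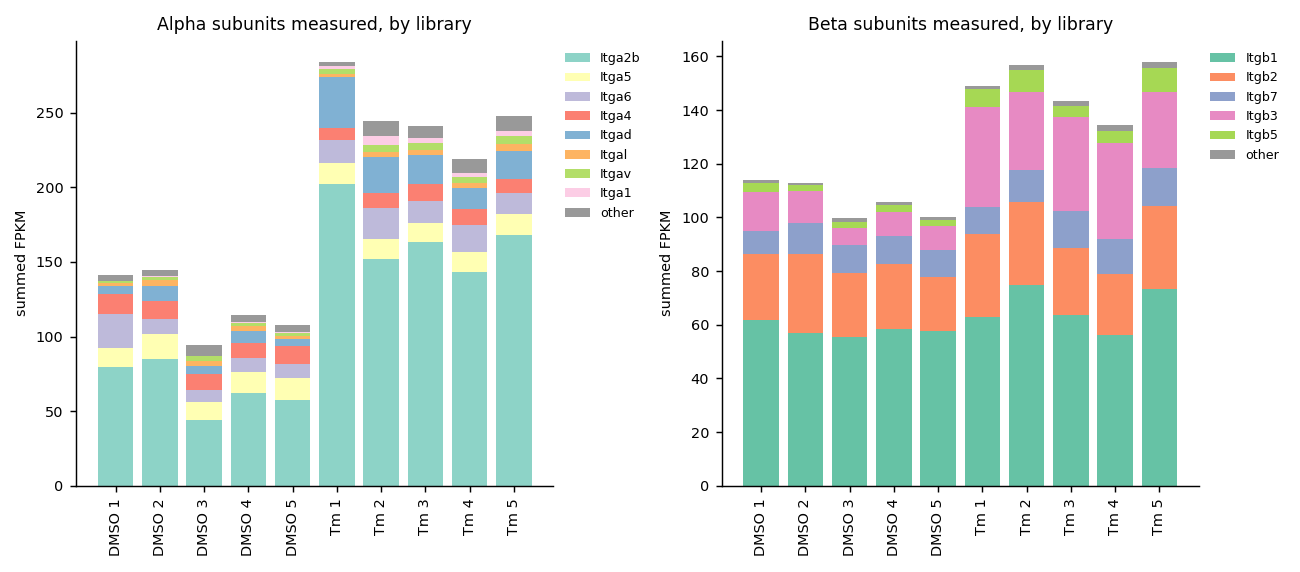
Summed FPKM of the measured integrin alpha subunits (left) and beta subunits (right) in each library, stacked by subunit, with Tm for tunicamycin. The Itga2b part is larger in all 5 treated libraries than in any DMSO library, while the Itga4 and Itga5 parts stay of similar height.

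Of the selectin genes and ligands, Sele, Selplg and Cd164 rose and Cd44 did not pass the threshold. That is 75% of these 4 genes, where 29.9% of all genes tested rose. Sele, E-selectin, the vessel-wall receptor that catches stem cells, was at 1.11, 1.95, 0.811, 4.06 and 0.457 FPKM in DMSO replicates 1 to 5. After tunicamycin it was at 5, 12.4, 4.98, 4.2 and 6.44 FPKM. The groups were just apart, since DMSO replicate 4 came close to Tunicamycin replicate 4, and Tunicamycin replicate 2 stood far above the rest. On the log2 scale the difference was 1.56 ± 0.33 (SE; adjusted p 0.00216, limma).

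The endothelial markers moved the same way across these libraries. Their summed level over 10 genes was 70.1 to 132 FPKM after DMSO, highest in replicate 4, and 134 to 315 FPKM after tunicamycin, highest in replicate 2 and next in replicate 5. Sele was likewise highest in DMSO replicate 4, and in Tunicamycin replicate 2 followed by replicate 5. The part of endothelial RNA in the level of Sele was not tested. Itga1 was highest in the same 3 libraries of their groups, and its part was not tested either.

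Selplg, the main ligand of P-selectin on blood cells, was at 46.9, 72.1, 64.7, 74.2 and 52.3 FPKM after DMSO and at 75, 110.4, 87.4, 81.5 and 124 FPKM after tunicamycin. The groups did not overlap, though Tunicamycin replicate 1 was only just above DMSO replicate 4. This gave a log2 change of 0.61 ± 0.17 (SE; limma, adjusted p 0.0101). In libraries with Xist alone, that is without DMSO replicates 3 and 5, it was 0.57 with an adjusted p of 0.055. Cd164, a sialomucin that supports adhesion of progenitors to stroma, went from 54.4 ± 1.73 to 70.8 ± 9.77 FPKM, a log2 change of 0.37 (adjusted p 0.0139). The call of Cd164 was lost with equal medians (log2 change 0.11) and in libraries with Xist alone (0.34). Cd44, the hyaluronan receptor, was at 42.9 ± 2.39 and 38.3 ± 5.34 FPKM (log2 change -0.17, adjusted p 0.23), and it passed as lower with equal medians (-0.42).

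Among the 4 immunoglobulin-type molecules, Icam1 and F11r rose (50%), where 29.9% of all genes tested rose. Icam1, the counter-receptor of LFA-1 and a gene that inflammatory signals are known to induce, was at 12.8, 19.7, 20.3, 23.2 and 15.3 FPKM after DMSO. After tunicamycin it was at 32, 60.1, 40.9, 37 and 44.6 FPKM. Every treated library lay above every DMSO library, with a 2.35-fold difference of the means. It changed by 1.19 ± 0.18 (SE) on the log2 scale (limma, adjusted p 0.00027), and it passed in all 20 alternative fits (adjusted p up to 0.00291).

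F11r (JAM-A), a junction molecule of vessel walls and blood cells, went from 16.8 ± 2.87 to 33.3 ± 11.8 FPKM, a log2 change of 0.89 (adjusted p 0.00392). Its treated libraries ranged from 21 to 50.9 FPKM, the highest being replicate 5. Jam3 (JAM-C), a related molecule that takes part in keeping stem cells in the marrow, was at 2.11 ± 0.307 and 3.32 ± 1.09 FPKM, with a log2 change of 0.44 (adjusted p 0.0543). Without Tunicamycin replicate 1 the log2 change of Jam3 was 0.56 (adjusted p 0.00699), and with scaling to a common sum it was 0.62 (adjusted p 0.0251). The antisense gene Gm48796 overlaps 36.2% of the exons of Jam3, and reads of both cannot be told apart if strand was not used in counting. Alcam, which marks stem cells and niche cells, was at 2.74 ± 0.778 and 3.6 ± 1.48 FPKM (log2 change 0.23, adjusted p 0.499). The whole-number library listed Alcam at 1 FPKM, the other 4 treated ones at 3.92 to 4.57 FPKM, and without it Alcam passed (0.51, adjusted p 0.0145).

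The cadherins, calcium-dependent adhesion molecules, were hardly detected. Cdh1, E-cadherin, was at 0.452, 0.309, 1.05, 0.224 and 0.472 FPKM after DMSO and was listed at 0, 0.428, 0.699, 1.28 and 0.982 FPKM after tunicamycin. The groups overlapped, with an exact two-sided permutation p of 0.532. Cdh2, N-cadherin, a molecule discussed as a link between stem cells and bone-lining cells, averaged 0.252 FPKM in the DMSO and 0.557 FPKM in the treated libraries (exact permutation p 0.135, and 0.0317 without Tunicamycin replicate 1).

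Of the 3 tetraspanins, membrane proteins that organise integrins in patches, 0 passed the threshold, and at an unadjusted p under 0.05 1 were higher. Cd81 was the most abundant of the 41 genes, at 386, 310.1, 291, 335 and 323 FPKM after DMSO and 413, 395, 329.8, 289.6 and 508 FPKM after tunicamycin. The groups overlapped, with Tunicamycin replicate 4 below all DMSO libraries, and the log2 change was 0.21 ± 0.15 (SE; adjusted p 0.281 in limma). The sign of Cd81 turned with equal medians (-0.05). Cd82, which is linked to stem cell quiescence, was at 87 ± 11.3 and 82.6 ± 18.8 FPKM (log2 change -0.10), a sign that turned with scaling to a common sum (0.03) and without Tunicamycin replicate 4 (0.02). Cd151, the partner of laminin-binding integrins, was at 20.6 ± 1.54 and 25.2 ± 3.68 FPKM (log2 change 0.27, adjusted p 0.0758), and it passed without Tunicamycin replicate 5 (0.36, adjusted p 0.00829) and with scaling to a common sum (0.40, adjusted p 0.0138).

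**Figure D3:**
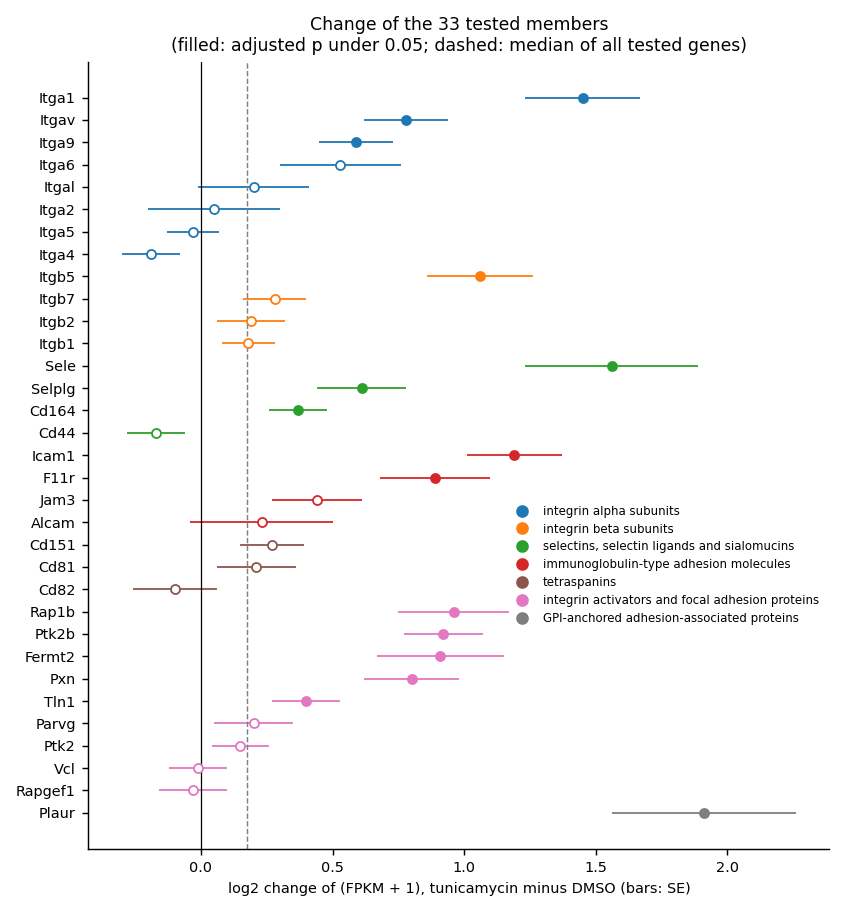
Log2 change of (FPKM + 1), tunicamycin minus DMSO, of the 33 tested members, with the SE as bars and families in colour; filled points passed an adjusted p of 0.05 in limma. The dashed line is the median of all genes tested, 0.18, and the largest change is that of Plaur at 1.91.

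Inside the cell, 5 of the 9 tested integrin activators and focal adhesion proteins rose (Rap1b, Ptk2b, Fermt2, Pxn and Tln1). That is 55.6%, where 29.9% of all genes tested rose. Fermt2, counted here, passed the filter mainly through the treated libraries. Rap1b, the small GTPase that brings talin to integrins, was at 76.6, 64.2, 36.2, 47.3 and 31.8 FPKM in DMSO replicates 1 to 5. After tunicamycin it was at 99, 89.8, 105, 90.5 and 94.4 FPKM. The treated libraries lay close together and all above the DMSO libraries, which were spread widely. On the log2 scale the difference was 0.96 ± 0.21 (SE; adjusted p 0.00232, limma).

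Both non-receptor kinases of the focal adhesion family were measured, and Ptk2b (PYK2), the one typical of blood cells, rose. It went from 14.1 ± 3.62 to 26.9 ± 1.52 FPKM, a log2 change of 0.92 (adjusted p 0.000381). Ptk2 (FAK) was at 4.26 ± 0.266 and 4.87 ± 0.755 FPKM, with a log2 change of 0.15 (adjusted p 0.308), and its sign turned with equal medians (-0.07) and quantile normalization (-0.09). The difference between both changes was not tested. Pxn, paxillin, a scaffold that both kinases bind, rose from a mean of 9.92 ± 3.18 FPKM to 17.4 ± 1.23 FPKM (log2 change 0.80, limma adjusted p 0.00283).

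Talin and the kindlin of the set also rose, at very different levels. Tln1 went from 45.8 ± 6.18 to 61 ± 9.84 FPKM, a log2 change of 0.40 (adjusted p 0.0221). Its call was lost in 7 of 20 alternative fits, among them those without DMSO replicate 1, 3 or 5 or Tunicamycin replicate 2 (adjusted p 0.0505 to 0.0616), and with equal medians its log2 change was 0.15. Fermt2, kindlin-2, which cells outside the blood mainly use, rose from a mean of 0.798 ± 0.276 FPKM to 2.53 ± 1.24 FPKM (log2 change 0.91, limma adjusted p 0.0082). Among the DMSO libraries replicate 3 alone reached 1 FPKM (1.16 FPKM), so Fermt2 passed the filter mainly through the treated libraries. Fermt3, the kindlin of blood cells and not a member of the set (named after its values were seen), was at 203 ± 24.8 and 295 ± 33.9 FPKM (log2 change 0.54, adjusted p 0.00362). Fermt2 was highest in Tunicamycin replicates 2 and 5, the 2 libraries with the highest endothelial and stromal sums, and the part of those cells in its level was not tested.

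Vcl, vinculin, was at 8.22 ± 0.961 and 8.14 ± 0.984 FPKM, and Rapgef1, an exchange factor for Rap1, at 7.11 ± 1.23 and 6.94 ± 0.978 FPKM. Their log2 changes were -0.01 ± 0.11 and -0.03 ± 0.13 (SE), and both signs turned with scaling to a common sum (0.11 and 0.09). Exons of Ap3m1 on the other strand overlap 25.5% of the exon bases of Vcl. Parvg, the parvin of blood cells, was at 68.8 ± 16.8 and 77.6 ± 4.06 FPKM (log2 change 0.20, adjusted p 0.299), and its sign turned with equal medians (-0.05). Ilk, the integrin-linked kinase that binds parvins, was listed at a mean of only 0.0701 FPKM in the DMSO and 0.205 FPKM in the treated libraries. In GENCODE M21 89.7% of the exon bases of Ilk overlap exons of Taf10 and Rrp8 on the other strand. How reads in overlapping genes were counted is not given in the sources used here, so these values do not show that Ilk was little expressed.

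Plaur had the largest log2 change of the 33 tested members. This GPI-anchored receptor holds urokinase at the cell surface and associates with integrins, and its cleavage is known to accompany the release of stem cells from the marrow. Plaur was at 27.7, 28.4, 10.7, 13.2 and 7.2 FPKM in DMSO replicates 1 to 5 and at 56, 103, 69.3, 50.6 and 39.4 FPKM after tunicamycin. Every treated library was above every DMSO library, yet DMSO replicates 1 and 2 held more than the other 3. This gave a log2 change of 1.91 ± 0.35 (SE; limma, adjusted p 0.000839), and it passed in all 20 alternative fits. Thy1, the second GPI-anchored member, had means of 0.627 ± 0.0833 FPKM (DMSO) and 0.653 ± 0.409 FPKM (treated), with 0 in the whole-number library (exact permutation p 0.937).

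**Figure D4:**
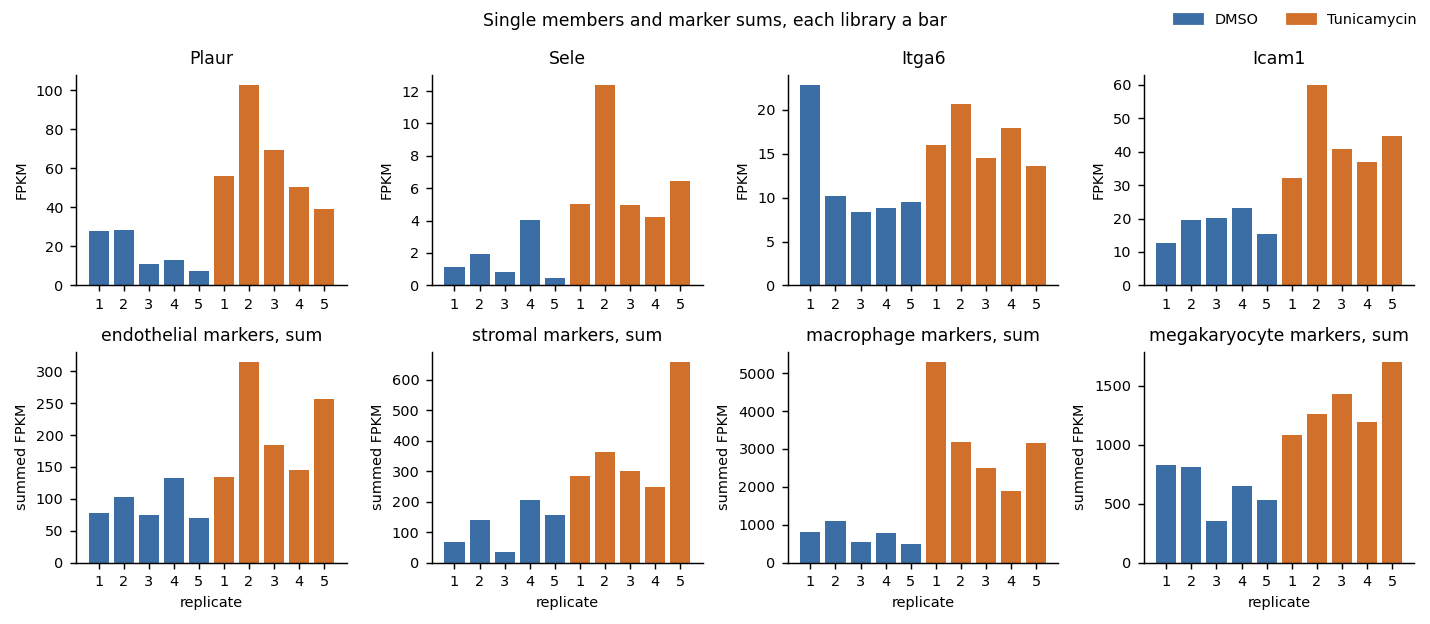
FPKM of Plaur, Sele, Itga6 and Icam1 (top) and summed FPKM of 10 endothelial, 10 stromal, 12 macrophage and 10 megakaryocyte markers (bottom), with 1 bar per library, DMSO in blue and tunicamycin in orange. Sele and the endothelial sum were both highest in Tunicamycin replicate 2, and Itga6 was highest in DMSO replicate 1.

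Members differed in how tightly the libraries of a group agreed. Within DMSO the coefficient of variation of FPKM was 3.18% for Cd164, 4.1% for Itgb1 and 5.57% for Cd44, against 85.9% for Sele and 56.8% for Plaur. After tunicamycin it was larger for Cd164 (13.8%), Itgb1 (11.8%) and Cd44 (13.9%) and smaller for Sele (50.8%) and Plaur (38.6%). For Ptk2b, Pxn, Rap1b and Parvg the spread was smaller after tunicamycin, at 5.64%, 7.06%, 6.71% and 5.24%, than after DMSO, at 25.8%, 32.1%, 36.9% and 24.4%. The spread thus became larger in some members and smaller in others. Among the treated libraries, replicate 2 held the highest value for 16 of the 33 tested members and replicate 5 for 10. Replicate 1 held the lowest value for 16, but its values are whole numbers only, and the part of rounding or truncation in that count was not tested. The summed macrophage markers ranged from 481 to 1101 FPKM in the DMSO group and from 1902 to 5305 FPKM in the treated group, highest in Tunicamycin replicate 1. The stromal sum was 35.9 to 205 FPKM and 249 to 659 FPKM. The part of these cells in the rises of the members was not tested.

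The other genes of adhesion were a list of 84, chosen with earlier results of these data known. Of the 65 tested, 44 rose and 1 fell, where 29.9% of all genes tested rose and 15.4% fell. Among those that rose, Vcam1, Pecam1, Emcn, Cdh5, Itga2b and Itgb3 are also on the macrophage, endothelial or megakaryocyte marker lists. The part of those cells in this count was not tested. Parva, counted as higher, was at 0.137 to 0.62 FPKM after DMSO, so it passed the filter through the treated libraries only. A count over genes at 1 FPKM in both groups was not made for this list. With equal medians 36 rose and 7 fell, where 3037 of all 14727 genes rose and 3972 fell. Of the counter-receptors, Vcam1, which binds Itga4 with Itgb1 and which marrow macrophages and stroma also express, went from 116 ± 33 to 724 ± 268 FPKM (log2 change 2.61). Selp, P-selectin, went from 7.59 ± 1.11 to 32.9 ± 5.64 FPKM (log2 change 1.98), and 14 of 18 tested receptors of this list rose. Of 5 tested genes on the list of other integrin subunits, which includes the integrin-binding protein Itgb1bp1, 3 rose, with Itgb3 at 10.2 ± 3.29 and 33.2 ± 4 FPKM and Itgad at 6.93 ± 2.08 and 22.1 ± 7.45 FPKM. Itga2b went from 65.6 ± 16.8 to 166 ± 22.6 FPKM.

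Of 31 tested cytoplasmic adhesion proteins 21 rose and 1 fell, against the same 29.9% and 15.4% of all genes. The 21 include Parva. Lpxn, leupaxin, a relative of paxillin in blood cells, went from 3.02 ± 0.333 to 9.7 ± 1.76 FPKM, and Zyx, zyxin, from 45.1 ± 14.6 to 110.2 ± 15.5 FPKM. The gene that fell was Apbb1ip (RIAM), which links Rap1 to talin, at 12.9 ± 1.17 and 9.84 ± 0.97 FPKM (log2 change -0.36, adjusted p 0.0144 in limma), and with scaling to a common sum or without a filter on low values 0 genes of the list fell. Of 8 enzymes that build selectin ligands 4 rose, led by the tyrosine sulfotransferase Tpst2 (57.6 ± 4.58 to 107 ± 19.3 FPKM) and the fucosyltransferase Fut4 (1.23 ± 0.459 to 2.82 ± 0.66 FPKM). Of 3 tested matrix ligands 2 rose, Spp1 (osteopontin) with a log2 change of 2.77 and Col4a1 (a collagen of basement membranes) with 1.52.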

How the data were processed

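RNA of sorted stem cells was extracted with a miRNeasy kit, amplified by the Geo-seq method and made into libraries with a transposase-based kit, per the labels' protocols. The authors deposited 1 table with an FPKM value for each gene model and library. The submitters' processing notes name Bowtie 0.12.9, Cufflinks 2.1.1, HTSeq, DESeq2 and build mm10, without their roles, and no source used here gives the annotation or strand setting. In the column of Tunicamycin replicate 1 the deposited values are whole numbers only and count here as a score, in the range of FPKM, since rounding or truncation is not stated.

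Counts were not used, so log2(FPKM + 1) was tested with limma 3.58.1 (trend) in R 4.3.3, without covariates, over the 14727 gene models at 1 FPKM or more in at least 5 libraries, with Benjamini-Hochberg adjustment and a threshold of 0.05. FPKM sums were 436970 to 499251, so highly expressed genes weigh on all others and other scalings were tried. Members under the filter were tested 1 at a time by exact two-sided permutation over libraries. Low values lay near whole multiples of 1 read, from which depths of about 18500000 to 60200000 reads were estimated for 9 libraries. At these depths 1 read in a gene of 2 kb gives 0.00831 to 0.027 FPKM, so values under about 0.1 FPKM rest on few reads.

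The members and all gene lists were chosen with earlier results of these data known. All 10 values are printed, in each family, for the member with the largest rise past the threshold and for that with the highest mean, and additionally for Itgax, which was picked after its values were seen. From each group of the pathway list up to 2 rises and 1 fall are named. The scripts were tested on simulated data.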

Additional observations from a re-analysis of the deposited data

Results flagged for a closer look

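In 7 of 82 groups of 5 libraries 1 member value stood apart from the other 4 by Dixon's test, and chance alone gives about 1 in 20 such groups. High values were those of Itga6 in DMSO replicate 1 (22.9 FPKM, next 10.2), Sele in Tunicamycin replicate 2 (12.4 FPKM, next 6.44), Cd82 in DMSO replicate 5 (107 FPKM, next 85.9) and Itga3 in DMSO replicate 3 (1.04 FPKM, next 0.539). Low values were those of Jam3 in DMSO replicate 5 (1.57 FPKM, next 2.18), and of Alcam (1 FPKM, next 3.92) and Itgam (0, next 0.75 FPKM) in Tunicamycin replicate 1, the library with whole numbers only.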

How the results depend on the processing

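The number of higher members lay between 12 and 20 over the alternatives, and between 12 and 16 when 1 library was left out. The number of all genes that were higher moved as well, from 3037 of 14727 (equal medians) to 5841 of 14313 (without Tunicamycin replicate 1). Without that replicate 16 of 31 tested members were higher. The number of lower members was 0 except with equal medians (2, Itga4 and Cd44) and quantile normalization (1, Itga4). Of the 15 higher members, Tln1, Cd164, Selplg and Itga9 lost the call in at least 1 alternative, and the other 11 kept it in each alternative in which they were tested (Itga1 and Itga9 fell under the filter in 5). In the libraries with Xist alone, without DMSO replicates 3 and 5, 12 of 32 tested members were higher, and 3130 of all 14157 genes tested. Signs turned in members that did not pass the threshold, and the cause was not tested. With a pseudocount of 0.1 the log2 change of Itga2 was -0.26. With equal medians that of Itga2 was -0.10, of Itgb1 -0.08, of Itgb2 -0.06, of Cd81 -0.05, of Parvg -0.05 and of Ptk2 -0.07. With quantile normalization it was -0.08 in Itga2, -0.06 in Itgal, -0.09 in Ptk2 and -0.01 in Alcam. With scaling to a common sum it was 0.09 in Itga5, 0.03 in Cd82, 0.11 in Vcl and 0.09 in Rapgef1. Leaving out 1 library gave -0.08 to 0.03 in Itga5, -0.18 to 0.02 in Cd82, -0.08 to 0.03 in Vcl and -0.08 to 0.05 in Rapgef1. Deviations of same-numbered libraries from their group means correlated at 0.248, 0.232, 0.085, 0.074 and 0.021, and 2 of the 5 numbers had their own number as best partner. With only 5 numbers this check cannot decide whether they pair the samples, and the main fit assumed no pairing. With the replicate number as a block 15 members were higher and 0 lower, and over all genes 4553 were higher and 2248 lower. The exact tests without Tunicamycin replicate 1, the count over genes at 1 FPKM in both groups and the limit on promoter distance were added after seeing the data.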
